A study of Mus musculus with 12 samples.

Results

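The carbonic anhydrase genes Car2, Car3, Car5a, Car8, Car13 and Car14 were followed across 12 mouse liver RNA-seq libraries. They were taken by gene symbol from the annotation field of the deposited tables, which found 6 of 6 among 24453 genes. The set of 6 was chosen by measured values: the FPKM of Car3 differed between the genotypes without doxycycline. Values of that contrast are therefore given as description only.

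The study asked what active AMPK, the cellular energy sensor kinase, does in the liver of mice on a fat-rich diet. All animals were C57Bl/6J mice, and their diet, with 45% of its calories from fat, lasted 8 weeks. All groups, controls included, were homozygous for ColA-AMPKa1(312), an inducible transgene of the AMPK α1 subunit, and for R26-rtTA, its doxycycline-dependent activator. L-iAMPK mice carried Albumin-Cre in addition, which is active in hepatocytes, and iAMPK mice did not. There were 4 groups of 3 libraries: L-iAMPK HFD+dox (diet with doxycycline), L-iAMPK HFD, iAMPK HFD+dox and iAMPK HFD, and the labels give AMPK as active in L-iAMPK HFD+dox alone. Age is not given in the labels, nor is it said whether libraries of a group came from separate mice, so a p-value covers only the spread among these libraries, which may be technical. In whole liver RNA, fewer cells of a type and less RNA per cell cannot be told apart.

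Carbonic anhydrases interconvert carbon dioxide and bicarbonate, and the active enzymes hold a zinc ion with histidine side chains. The family members differ in place and speed: Car2 is a fast cytosolic enzyme, Car3 a slow cytosolic one that is abundant in muscle, fat and liver, and Car13 another cytosolic form. Car5a works inside liver mitochondria, where it supplies bicarbonate to urea synthesis and to pyruvate carboxylase. Car14 spans the cell membrane, and Car8 is a related protein without the catalytic activity that binds the inositol trisphosphate receptor.

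The stretch of coding sequence around the first of the zinc-holding histidines shows how the 6 genes differ, and it is shown because it separates Car8 from the active enzymes. The 30 bases are from GENCODE release M21 on GRCm38 (mm10), and the capitals mark the codons aligned with the first and the second zinc-holding histidine of Car2.
Car3: cttcgccaattcCATcttCACtggggctcc
Car2: ttgatccagtttCACtttCACtggggctca
Car13: ttgcggcagttcCATttgCACtgggggtca
Car5a: ctgaagcagtttCATttcCACtggggagca
Car8: ctgtatgaagttAGAtttCACtggggaaga
Car14: gcagcccagctcCACctgCACtggggtcag

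Each stretch lies in 1 coding exon: chr3:14866838-14866867 (plus strand, exon 3) for Car3, chr3:14895057-14895086 (plus, exon 3) for Car2 and chr3:14650694-14650723 (plus, exon 3) for Car13. The others are chr8:121927137-121927166 (minus, exon 3) for Car5a, chr4:8221604-8221633 (minus, exon 3) for Car8 and chr3:95900300-95900329 (minus, exon 4) for Car14. Counted from the A of the Car2 start codon, Car3, Car5a and Car13 carry C282T, which leaves a histidine codon. Car8 carries C280A, A281G and C282A, which make the codon one for arginine. Over whole coding sequences, the 15 pairs of members shared 44.3% to 63.5% of aligned bases, with Car2 and Car3 the most alike.

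In the files' own mm10 coordinates, Car13 (chr3:14641727-14663002, plus strand), Car3 (chr3:14863538-14872373, plus) and Car2 (chr3:14886426-14900770, plus) lie in 1 cluster on chromosome 3. Car1, a fast cytosolic carbonic anhydrase known from red blood cells that is not in the set, lies between Car13 and Car3 (chr3:14766214-14778460, minus). Car14 is elsewhere on chromosome 3 (chr3:95897800-95904639, minus), Car8 is on chromosome 4 (chr4:8141493-8239041, minus) and Car5a on chromosome 8 (chr8:121916138-121944912, minus).

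Reads per gene could be recovered from the scaled tags for 11 of the 12 libraries, with 13569437 to 20696899 reads in genes. Hepatocyte markers such as Alb and Apoa1 were high in every library, with 9 listed genes summing to 53203 to 63318 FPKM in L-iAMPK HFD+dox and 51892 to 60355 FPKM in iAMPK HFD. Skeletal muscle, another tissue rich in Car3, left a trace in 1 library: 13 muscle markers summed to 4.18 FPKM in iAMPK HFD+dox replicate 2 and to at most 1.27 FPKM in the other 11.

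Car3 made up most of the carbonic anhydrase RNA. FPKM counts fragments relative to transcript length and library depth, so levels of different genes can be set side by side. Car3 took 84.5% to 95.3% of the summed FPKM of the 6 genes, and ranked between 20 and 94 among all genes, best in iAMPK HFD. Car5a followed with 2.91% to 11.2%, then Car14 with 1.06% to 2.46% and Car8 with 0.591% to 1.97%. In L-iAMPK HFD replicates 1 and 3 Car8 stood above Car14, and in all other libraries below it. Car2 took 0.0819% to 0.945%, and Car13 took 0.00398% to 0.0537%.

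**Figure D1:**
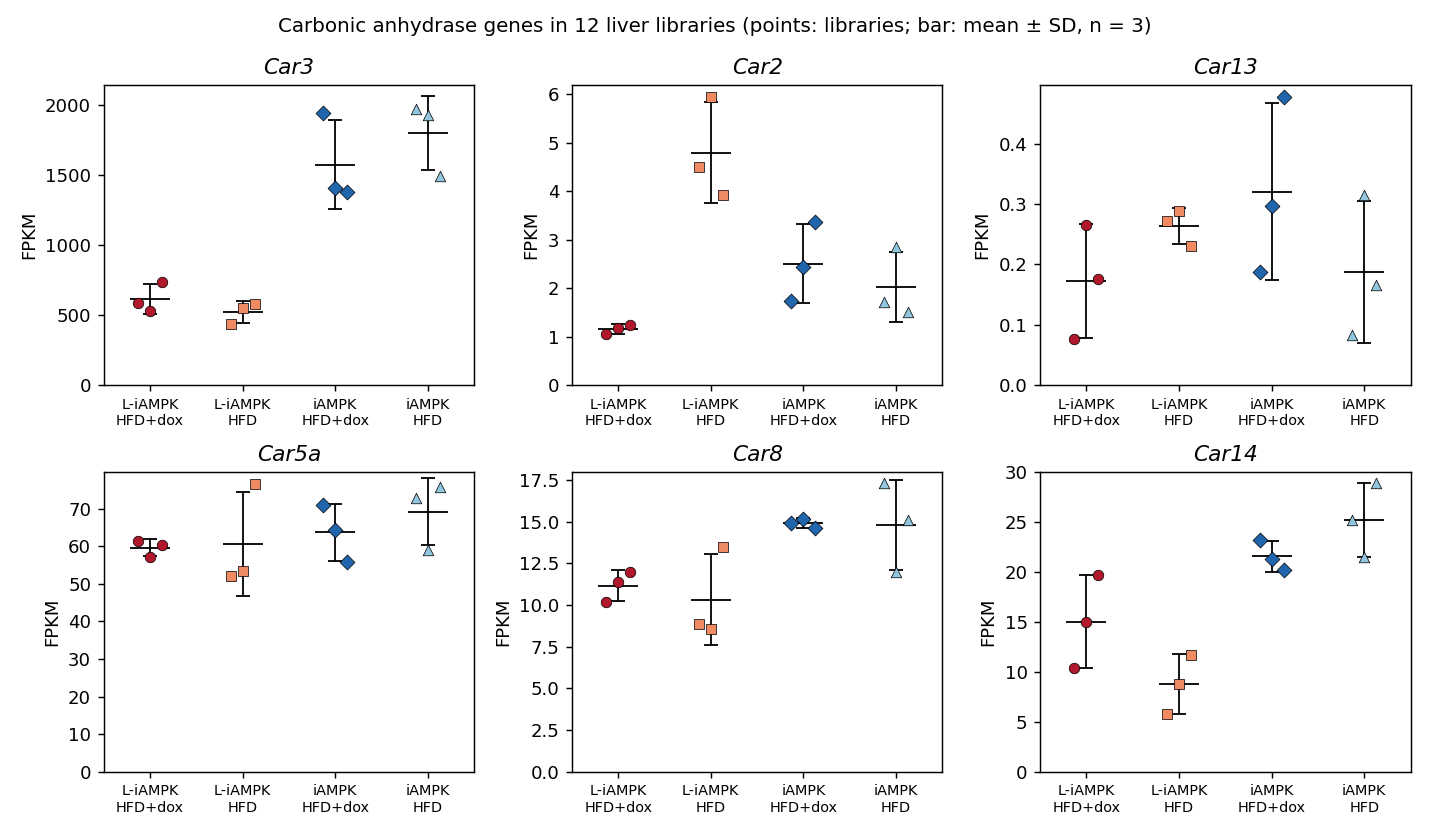
FPKM of the 6 genes in each library, with the groups L-iAMPK HFD+dox, L-iAMPK HFD, iAMPK HFD+dox and iAMPK HFD from left to right, points for libraries and a bar for the mean ± SD (n = 3). Car3 stays between 435 and 734 FPKM in the 6 L-iAMPK libraries and between 1377 and 1969.9 FPKM in the 6 iAMPK libraries, while Car2 is highest in L-iAMPK HFD and lowest in L-iAMPK HFD+dox.

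Car3, the slow cytosolic enzyme, was lower in L-iAMPK liver than in iAMPK liver with and without doxycycline. On doxycycline it had 588, 526 and 734 FPKM in L-iAMPK HFD+dox, against 1944, 1407 and 1377 FPKM in iAMPK HFD+dox. The highest L-iAMPK HFD+dox library stood below the lowest iAMPK HFD+dox library, and 1 iAMPK HFD+dox library was well above the other two. The means were 616 ± 107 and 1576 ± 319 FPKM (SD, n = 3 each), a ratio of 2.56-fold lower. On the log2(FPKM + 0.5) scale the difference was -1.35 ± 0.18 (SE), with a limma Benjamini-Hochberg adjusted p of 0.00103 over 12614 genes. These 6 libraries are not those whose values chose the gene.

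This call held in the 10 other settings tried and when each of the 6 compared libraries was left out, which gave log2 differences of -1.48 to -1.19 and adjusted p-values from 0.000424 to 0.0119. Without iAMPK HFD+dox replicate 2, the library with muscle RNA, it was -1.42 with a limma adjusted p of 0.00403. In the authors' deposited table, whose fold changes run as L-iAMPK HFD+dox over the other group, judging by the values, Car3 stands at a log2 fold change of -1.27 in this comparison, with an adjusted p of 6.56e-09.

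Without doxycycline Car3 had 435, 553 and 577 FPKM in L-iAMPK HFD, against 1969.9, 1933 and 1494 FPKM in iAMPK HFD. The groups are widely apart, with means of 522 ± 75.9 and 1799 ± 265 FPKM (SD, n = 3 each), a ratio of 3.45-fold lower and a log2 difference of -1.78. That difference chose the gene and has no test here. Of the other members, Car14 and Car2 also had groups that do not overlap in this contrast, which 30.1% of all genes tested showed, 6.80% with L-iAMPK HFD lower and 23.3% with it higher.

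Within a genotype the Car3 groups overlapped. L-iAMPK HFD+dox spanned 526 to 734 FPKM and L-iAMPK HFD 435 to 577 FPKM, a log2 difference of 0.24 ± 0.18 (SE). iAMPK HFD+dox spanned 1377 to 1944 FPKM and iAMPK HFD 1494 to 1969.9 FPKM, a log2 difference of -0.20 ± 0.18 (SE). Both comparisons share libraries with the contrast that chose Car3, so neither was tested. Ordered by mean from the lowest, Car3 ran L-iAMPK HFD, L-iAMPK HFD+dox, iAMPK HFD+dox and last iAMPK HFD. In that order L-iAMPK HFD+dox and iAMPK HFD+dox did not overlap, and the other neighbours did.

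**Figure D2:**
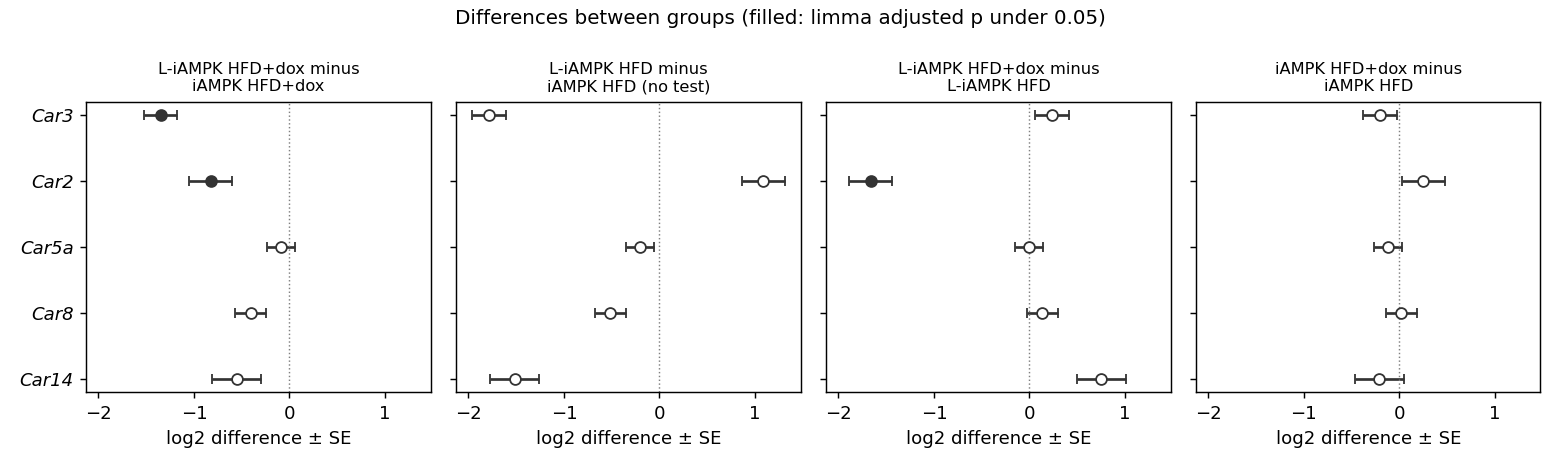
Differences in log2(FPKM + 0.5) with their standard errors for the 5 genes that passed the filter, 1 panel for each of 4 comparisons, with the dotted line at 0. Filled points mark a limma adjusted p under 0.05: Car3 at -1.35 and Car2 at -0.83 between genotypes on doxycycline, and Car2 at -1.66 for doxycycline in L-iAMPK. The second panel and Car3 in the third and the fourth panel were not tested.

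Car2, the fast cytosolic enzyme, did not follow Car3. Between the genotypes on doxycycline it had 1.05, 1.18 and 1.24 FPKM in L-iAMPK HFD+dox, against 1.73, 2.43 and 3.36 FPKM in iAMPK HFD+dox. The groups did not overlap, and the 3 L-iAMPK HFD+dox libraries lay close together. It fell by 0.83 ± 0.23 (SE) on the log2 scale, with a limma adjusted p of 0.0334. That call ended with edgeR on recovered reads (log2 -1.05, adjusted p 0.0665) and without a filter (0.125). The edgeR fit also lacked iAMPK HFD+dox replicate 2, whose reads were not recovered. When 1 library was left out, limma lost the call for each of L-iAMPK HFD+dox replicates 1 (0.101), 2 (0.0795) and 3 (0.0706) and of iAMPK HFD+dox replicates 2 (0.0899) and 3 (0.112).

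The larger change of Car2 was with doxycycline in L-iAMPK liver. It had 1.05, 1.18 and 1.24 FPKM in L-iAMPK HFD+dox, against 4.50, 5.95 and 3.93 FPKM in L-iAMPK HFD, and every L-iAMPK HFD library was above every other library of the study. The means were 1.15 ± 0.0976 and 4.79 ± 1.04 FPKM (SD, n = 3 each), 4.15-fold lower. It fell by 1.66 ± 0.23 (SE) on the log2 scale, with a limma adjusted p of 0.000965, and the call held in the same kinds of alternatives, with log2 differences of -1.95 to -1.41. The authors' deposited table has a log2 fold change of -1.88 for Car2 in this comparison, with an adjusted p of 8.98e-14. The comparison shares the L-iAMPK HFD+dox libraries with that between genotypes on doxycycline.

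Doxycycline alone did not move Car2 past the test. iAMPK HFD+dox had 1.73, 2.43 and 3.36 FPKM and iAMPK HFD 1.71, 2.84 and 1.51 FPKM, which overlap, with a log2 difference of 0.25 ± 0.23 (SE) and a limma adjusted p of 0.88. The response to doxycycline differed between the genotypes by -1.92 ± 0.32 (SE) on the log2 scale, with a limma adjusted p of 0.00822 for the interaction. Without a filter on low genes that call ended (limma adjusted p 0.0523). This test holds the contrast that chose Car3. Without doxycycline Car2 was 2.37-fold higher in L-iAMPK HFD than in iAMPK HFD, and it was the member whose groups stood apart with L-iAMPK HFD higher, given as description.

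Bile duct cells are known to express Car2, and few of their markers were called. The 9 listed cholangiocyte markers summed to 22.7 to 27.5 FPKM in L-iAMPK HFD+dox and 43.7 to 162 FPKM in L-iAMPK HFD, most of it Spp1, a secreted phosphoprotein. In iAMPK HFD+dox the sum was 32.8 to 187 FPKM. Of 7 that passed the filter, 2 fell with doxycycline in L-iAMPK (1 after median-ratio scaling), where 25.8% of all genes were called, and 0 were called between genotypes on doxycycline. The keratin Krt7 fell by 0.84 ± 0.21 (SE) on the log2 scale with doxycycline in L-iAMPK, with a limma adjusted p of 0.0144, and was called in 14 of 16 fits. None of the defining markers was at 0 in all libraries, and their part in the Car2 values was not tested.

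Car14, the membrane enzyme, had the same order of group means as Car3. Between genotypes on doxycycline it had 10.4, 15.04 and 19.7 FPKM in L-iAMPK HFD+dox, against 23.2, 21.3 and 20.2 FPKM in iAMPK HFD+dox. The groups come close but do not overlap, and the difference of -0.55 ± 0.26 (SE) on the log2 scale had a limma adjusted p of 0.173. Without doxycycline Car14 had 5.75, 8.84 and 11.7 FPKM in L-iAMPK HFD, against 25.2, 21.5 and 28.9 FPKM in iAMPK HFD, a ratio of 2.87-fold lower given as description.

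With doxycycline in L-iAMPK, Car14 averaged 15.05 ± 4.65 FPKM in L-iAMPK HFD+dox and 8.78 ± 2.996 FPKM in L-iAMPK HFD (SD, n = 3 each). The groups overlap, and the difference of 0.75 ± 0.26 (SE) on the log2 scale missed the threshold with a limma adjusted p of 0.0538. It passed with edgeR (0.0338), after median-ratio scaling (0.0335) and after quantile normalization (0.0398). By limma it also passed when replicate 3 of L-iAMPK HFD (0.0196) or replicate 1 of L-iAMPK HFD+dox (0.0267) was left out. The authors' deposited table gives Car14 a log2 fold change of 0.95 here, with an adjusted p of 0.00377. In iAMPK liver the log2 difference with doxycycline was -0.21 ± 0.26 (SE), with a limma adjusted p of 0.911, and the interaction was 0.96 ± 0.36 (SE), with a limma adjusted p of 0.099. Without L-iAMPK HFD replicate 3 the limma adjusted p of the interaction was 0.0373.

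Car8, the form without catalytic activity, spanned 8.58 to 17.3 FPKM over the 12 libraries, a 2.02-fold range. It had 10.2, 11.4 and 11.96 FPKM in L-iAMPK HFD+dox, against 14.9, 15.2 and 14.6 FPKM in iAMPK HFD+dox. All 3 libraries were below all 3 of the other group, but the difference of -0.40 ± 0.16 (SE) on the log2 scale had a limma adjusted p of 0.119. A fit to the 6 compared libraries alone put it at 0.0242. Without doxycycline it had 8.87, 8.58 and 13.4 FPKM in L-iAMPK HFD, against 17.3, 11.98 and 15.1 FPKM in iAMPK HFD, which overlap. Doxycycline gave log2 differences of 0.14 ± 0.16 in L-iAMPK and 0.02 ± 0.16 in iAMPK (SE), with limma adjusted p-values of 0.563 and 0.984, and the second turned to -0.01 after median-ratio scaling.

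Car5a, the mitochondrial enzyme, overlapped between every pair of neighbouring groups. It had 61.4, 57.1 and 60.4 FPKM in L-iAMPK HFD+dox, 52.0, 53.5 and 76.6 FPKM in L-iAMPK HFD, 70.9, 64.4 and 55.8 FPKM in iAMPK HFD+dox and 72.9, 59.0 and 75.9 FPKM in iAMPK HFD. The highest library of all was only 1.47-fold above the lowest, the narrowest range of the 6 genes. Between genotypes on doxycycline its log2 difference was -0.09 ± 0.15 (SE), with a limma adjusted p of 0.715, and turned to 0.01 after median-ratio scaling. With doxycycline in L-iAMPK it was -0.00 ± 0.15 (SE), with a limma adjusted p of 0.992, and 0.17 after median-ratio scaling.

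Car13, the remaining cytosolic form, was close to the limit of detection. It spanned 0.077 to 0.265 FPKM in L-iAMPK HFD+dox, 0.23 to 0.288 FPKM in L-iAMPK HFD, 0.188 to 0.477 FPKM in iAMPK HFD+dox and 0.083 to 0.315 FPKM in iAMPK HFD, and all groups overlapped. These levels rest on 4 to 21 recovered reads per library, against 14848 to 65064 for Car3 and 42 to 241 for Car2. Car13 did not reach the minimum of 0.5 FPKM in 3 libraries that the tests required, so 5 of the 6 members were tested.

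As a set, 2 of 5 members were called lower and 0 higher between genotypes on doxycycline, where 14.9% of 12614 genes were called, 4.61% higher and 10.3% lower. Groups that do not overlap were found in 4 of 6 members there, all with L-iAMPK HFD+dox lower, against 34.9% of all genes, 11.5% higher and 23.4% lower. The median log2 difference of the 5 members was -0.55, beside -0.08 for all genes. Because reads in all genes set the scale, median-ratio scaling moved the median of all genes to 0.01 and the split of calls to 1129 higher and 870 lower, from 581 higher and 1301 lower.

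With doxycycline in L-iAMPK, 1 of 4 members tested was called, Car2, where 25.8% of all genes were called, 4.76% higher and 21.1% lower. In 1 of 6 members, Car2, the groups did not overlap, against 44.0% of all genes, 9.06% higher and 34.9% lower. Median-ratio scaling moved the median of all genes by over 0.1 here, to 0.02 from -0.13, and the split to 1647 higher and 1336 lower, from 600 higher and 2659 lower. For the interaction 1 of 4 members was called, against 13.2% of all genes, 2.01% higher and 11.2% lower. That split was 254 higher and 1409 lower, and 850 higher and 671 lower after median-ratio scaling, with medians of all genes of -0.15 and 0.04.

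With doxycycline in iAMPK, limma called 0 of 4 members and 0% of all genes, with 786 genes at an unadjusted p under 0.05. The unadjusted p of the 4 members was 0.288 to 0.889. edgeR called 0 genes too, with 773 at an unadjusted p under 0.05. No member had groups that do not overlap, against 10.2% of all genes, 5.78% higher and 4.46% lower.

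Around Car3 the genes of the cluster moved in different directions. Car1 had 7.66, 7.09 and 10.05 FPKM in L-iAMPK HFD+dox, against 3.51, 2.94 and 3.94 FPKM in iAMPK HFD+dox, and 1.86, 1.53 and 3.51 FPKM in L-iAMPK HFD. It had 6.56, 4.04 and 4.42 FPKM in iAMPK HFD, so every L-iAMPK HFD+dox library was above all others. Car1 rose by 1.14 ± 0.25 (SE) on the log2 scale between genotypes on doxycycline, with a limma adjusted p of 0.0141, and by 1.70 ± 0.25 (SE) with doxycycline in L-iAMPK, with a limma adjusted p of 0.00164. In iAMPK the log2 difference with doxycycline was -0.46 ± 0.25 (SE), with a limma adjusted p of 0.811, and the interaction was 2.15 ± 0.35 (SE), with a limma adjusted p of 0.0082. The call between genotypes on doxycycline ended without a filter (adjusted p 0.0621) and, by limma, when replicate 3 of L-iAMPK HFD+dox (0.0511) or replicate 2 of iAMPK HFD+dox (0.0568) was left out.

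On doxycycline, then, Car1 was higher in L-iAMPK liver while its neighbours Car3 and Car2 were lower. Within 500 kb of Car3 the tables list 11 other genes. Besides Car1 and Car2, the transcription factor gene E2f5, the centrosomal Lrrcc1 and 1810022K09Rik passed the filter, and limma called none of these last 3 in either comparison, with adjusted p-values from 0.11 to 0.771. Red blood cell markers, given because Car1 is known from those cells, summed to 160 to 204 FPKM over 7 genes in L-iAMPK HFD+dox, 129 to 251 FPKM in L-iAMPK HFD and 195 to 237 FPKM in iAMPK HFD+dox. Of 6 that passed the filter, 1 was called lower and 0 higher in each of those comparisons. Over all genes 10.3% were called lower between genotypes on doxycycline and 21.1% with doxycycline in L-iAMPK. The part of these markers in the Car1 values was not tested.

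**Figure D3:**
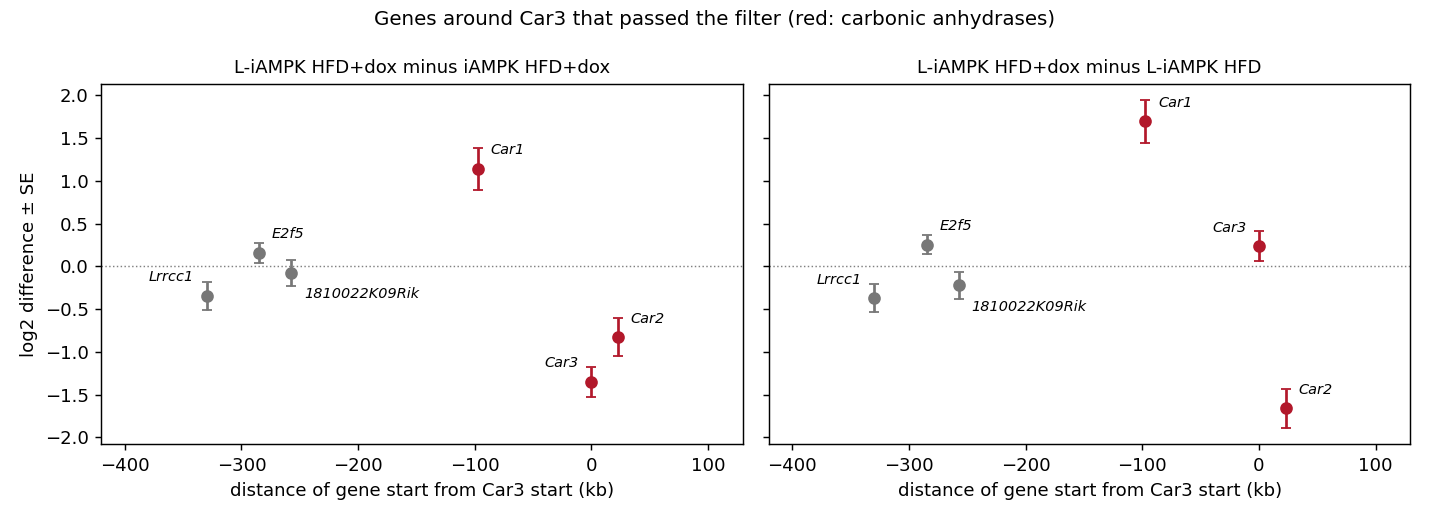
Log2 differences ± SE of genes near Car3 that passed the filter, against the distance of the gene start from that of Car3 in kilobases, with carbonic anhydrases in red. On the left, L-iAMPK HFD+dox minus iAMPK HFD+dox, Car1 is at 1.14, Car3 at -1.35 and Car2 at -0.83. On the right, L-iAMPK HFD+dox minus L-iAMPK HFD, Car1 is at 1.70, Car2 at -1.66 and Car3, not tested there, at 0.24.

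The rest of the family was scarce. Of 10 other carbonic anhydrase genes, Car1, Car5b and Car7 passed the filter and Car10 was listed at 0 in all libraries. Car5b, a second mitochondrial form, and Car7, a cytosolic form, had limma adjusted p-values of 0.466 and 0.456 between genotypes on doxycycline.

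Genes that carry or use bicarbonate were called lower, never higher, in these comparisons, and most of those calls depended on the scaling. Calls over all genes leaned the same way. They were 10.3% lower and 4.61% higher between genotypes on doxycycline, and 21.1% lower and 4.76% higher with doxycycline in L-iAMPK. Of 16 listed transporters of the Slc4 and Slc26 families 6 passed the filter, and 2 fell and 0 rose between genotypes on doxycycline, with a list median of -0.03 on the log2 scale beside -0.08 for all genes. The anion exchanger Slc26a1 had 44.5, 41.1 and 50.1 FPKM in L-iAMPK HFD+dox, against 75.0, 76.7 and 71.5 FPKM in iAMPK HFD+dox, which are far apart. It fell by 0.72 ± 0.09 (SE) on the log2 scale, with a limma adjusted p of 0.000826. The sodium bicarbonate cotransporter Slc4a4 fell by 0.45 ± 0.13 (SE), with a limma adjusted p of 0.0453. Slc4a7, another cotransporter, stood at 0.09 (adjusted p 0.64, limma). With doxycycline in L-iAMPK, 2 of 6 fell. After median-ratio scaling 1 of 6 fell in each comparison, and Slc4a4 between genotypes on doxycycline had a limma adjusted p of 0.0747. Slc4a4 was called there in 6 of 17 fits, Slc26a1 in all 17. Slc26a1 stood at -0.59 between genotypes without doxycycline, as description, and at -0.23 with doxycycline in L-iAMPK (limma adjusted p 0.089).

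Of 9 enzymes that fix bicarbonate or depend on it, 3 fell and 0 rose between genotypes on doxycycline, with a list median of -0.28 beside -0.08 for all genes. Mccc1, a subunit of methylcrotonyl-CoA carboxylase, fell by 0.37 ± 0.08 (SE) with a limma adjusted p of 0.0133. The propionyl-CoA carboxylase subunits Pcca and Pccb fell by 0.29 and 0.26, with limma adjusted p-values of 0.0224 and 0.0436. With doxycycline in L-iAMPK 4 of 9 fell, with a median of -0.30 beside -0.13 for all genes. After median-ratio scaling 0 of 9 were called between genotypes on doxycycline, with limma adjusted p-values of 0.0725 for Mccc1, 0.104 for Pcca and 0.245 for Pccb, and 1 of 9 fell with doxycycline in L-iAMPK. Between genotypes on doxycycline Mccc1 was called in 15 of 17 fits, Pcca in 8 and Pccb in 5.

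Cells other than hepatocytes that hold Car3 were looked for by their markers. Fat cells are rich in Car3, and 8 of their markers summed to 1.55 to 2.87 FPKM in L-iAMPK HFD+dox and 3.94 to 11.5 FPKM in iAMPK HFD+dox. Without doxycycline they summed to 5.84 to 8.82 FPKM in L-iAMPK HFD and 3.10 to 20.2 FPKM in iAMPK HFD. Of 4 that passed the filter, Cfd, which encodes adipsin, fell by 2.14 ± 0.51 (SE) between genotypes on doxycycline, with a limma adjusted p of 0.0204. Cfd was called in 12 of 17 fits, the main one included, with log2 differences of -4.50 to -1.49 and adjusted p-values up to 0.0742. Its log2 difference was -2.35 between genotypes without doxycycline, as description, and -0.07 with doxycycline in L-iAMPK (limma adjusted p 0.933). Lep, the leptin gene, was at 0 in all libraries and Adipoq, the adiponectin gene, reached at most 0.1 FPKM. Of 13 muscle markers only Mylpf, a myosin light chain, passed the filter. It was not called between genotypes on doxycycline (limma adjusted p 0.611). They summed to 0.474 to 0.811 FPKM in L-iAMPK HFD+dox and 0.549 to 4.18 FPKM in iAMPK HFD+dox.

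Of 12 genes of hepatocytes around the central vein, 7 fell and 0 rose between genotypes on doxycycline, with a list median of -0.63 beside -0.08 for all genes. Calls over all genes were 10.3% lower and 4.61% higher there. Oat, ornithine aminotransferase, fell by 1.85 ± 0.24 (SE), with a limma adjusted p of 0.00103. Rhbg, an ammonium transporter, fell by 1.51 ± 0.21 (SE), with a limma adjusted p of 0.00163, and the glutamate transporter Slc1a2 fell by 0.77 ± 0.18 (SE), with 0.0161. The recovered reads of Slc1a2 do not follow its FPKM, and edgeR on them gave -0.10 with an adjusted p of 0.785. It was called in 11 of 17 fits, Oat and Rhbg in all 17. After median-ratio scaling 5 of 12 fell and 0 rose. Without doxycycline the list median was -0.42 beside 0.08 for all genes, with Oat at -0.11, Rhbg at 0.76 and Slc1a2 at -0.58. Those values are description only. With doxycycline in L-iAMPK 3 of 12 fell and 0 rose (2 fell and 1 rose after median-ratio scaling), with a list median of -0.27 beside -0.13. In that comparison 21.1% of all genes were called lower and 4.76% higher. There Oat stood at -1.44, Rhbg at -2.17 and Slc1a2 at -0.09, and Car3, not tested, at 0.24. The 12 genes summed to 3219 to 5015 FPKM in L-iAMPK HFD+dox and 4997 to 6354 FPKM in iAMPK HFD+dox. Their part in the Car3 values was not tested.

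In rats Car3 is known to be more abundant in male than in female liver. All 12 libraries held Y-linked transcripts, and Xist reached at most 0.058 FPKM. Of 13 genes known to be higher in male mouse liver, 2 fell and 0 rose between genotypes on doxycycline, with a list median of -0.38 beside -0.08 for all genes. In that comparison 10.3% of all genes were called lower and 4.61% higher. Mup20, a major urinary protein, fell by 3.08 ± 0.56 (SE), with a limma adjusted p of 0.00679, and Selenbp2, a selenium-binding protein, fell by 3.92 ± 1.09 (SE), with 0.0391. Gstp1, next by p, went the other way, at 1.02 ± 0.34 (SE), with a limma adjusted p of 0.0688. Of 8 tested genes known to be higher in female liver, 3 rose and 0 fell, with a list median of 0.64. The rise was led by the transcription factor gene Cux2 at 2.97 ± 0.22 (SE), with a limma adjusted p of 2.97e-05. Cyp2b9, Cyp2b13 and Hao2 went the other way, at -1.23, -0.98 and -0.89, and were not called. The male-biased and the female-biased counts were the same after median-ratio scaling. Selenbp2 was called in 9 of 17 fits and Gstp1 in 3, Mup20 and Cux2 in each fit that held them. Without doxycycline the list medians were -1.89 for the male-biased and 1.14 for the female-biased genes, beside 0.08 for all genes, as description. With doxycycline in L-iAMPK these medians were 0.998 and -0.17, beside -0.13 for all genes. There 1 male-biased gene rose and 0 fell (3 and 0 after median-ratio scaling). Among the female-biased genes 2 rose and 1 fell (2 and 0), beside 4.76% of all genes called higher and 21.1% lower. The male-biased genes summed to 805 to 1479 FPKM in L-iAMPK HFD+dox and 933 to 1984 FPKM in iAMPK HFD+dox, which overlap, and their part in the Car3 values was not tested.

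Likeness was measured as Pearson's r of log2(FPKM + 0.5) over the 12 libraries, among 10335 tested genes with a mean of at least 1 FPKM. The libraries fall into 4 groups and each pair of values shares its library, so r is a description only. F11, coagulation factor XI, was the gene most like Car3 (r = 0.986, Spearman's rho = 0.986). It averaged 15.4 ± 1.93 FPKM in L-iAMPK HFD+dox and 12.8 ± 2.21 FPKM in L-iAMPK HFD, against 35.6 ± 11.6 FPKM in iAMPK HFD+dox and 45.8 ± 9.90 FPKM in iAMPK HFD (SD, n = 3 each). Its groups stood in the same order as those of Car3.

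The next most like Car3 were Crp, C-reactive protein (r = 0.967), C4bp, a complement regulator (0.955), the kinase gene Prkd3 (0.953) and Hsd3b7, an enzyme of bile acid synthesis (0.942). When the 4 group means were taken out, the deviations of Car3 were most like those of Nudt7 (r = 0.922), a peroxisomal coenzyme A hydrolase. Abhd14b (0.921), F11 (0.911), Phkg2, a phosphorylase kinase subunit (0.908), and C4bp (0.905) followed. F11 and C4bp were thus on both lists.

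**Figure D4:**
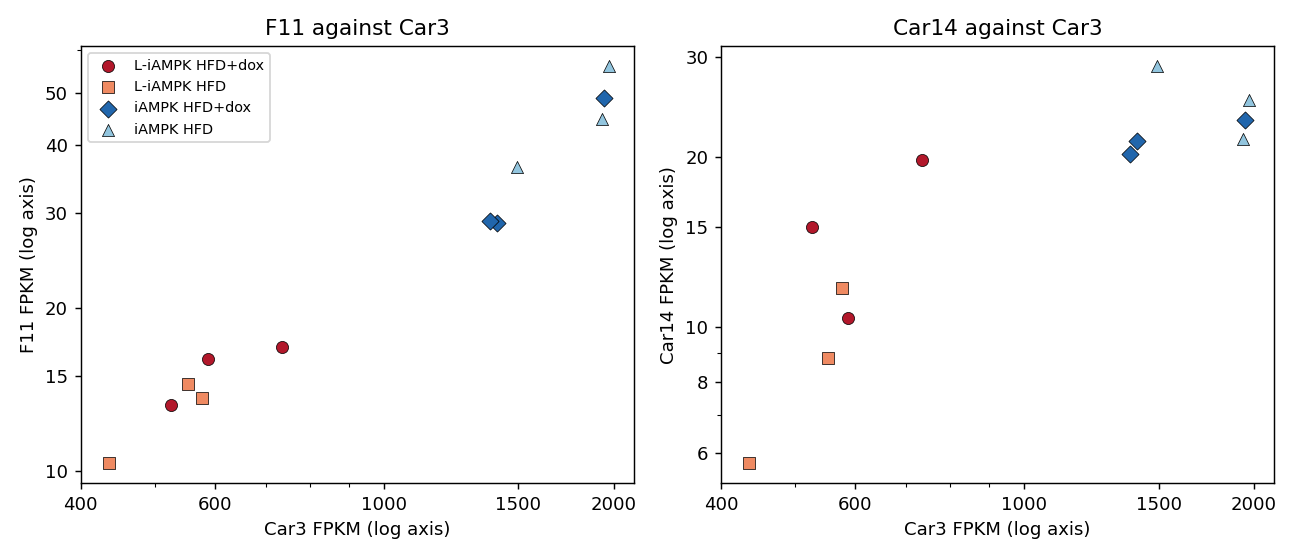
F11 (left) and Car14 (right) against Car3, FPKM on log axes, 1 point per library, with shapes and colours for the 4 groups. In both panels the 6 L-iAMPK libraries lie to the left, at up to 734 FPKM of Car3, and the 6 iAMPK libraries to the right. F11 follows Car3 closely (r = 0.986) and Car14 less so (r = 0.861).

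Among the members, Car3 and Car14 had r = 0.861 over the 12 libraries and 0.458 for deviations from group means. Car8 went with Car14 at 0.860 and with Car3 at 0.791. Car5a and Car8 had 0.746, and 0.820 for the deviations. Car2 was negative with each of the other 4 tested, from -0.21 with Car3 to -0.51 with Car14.

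For Car2 the most similar genes were the histone methyltransferase gene Ezh1 (r = 0.988) and the lysosomal thioesterase gene Ppt1 (0.982). Ezh1 averaged 4.53 ± 0.139 FPKM in L-iAMPK HFD+dox and 6.65 ± 0.390 FPKM in L-iAMPK HFD (SD, n = 3 each), a narrower range than that of Car2. Car14 was most like the cytochrome Cyp2j5 (0.945) and Haao (0.931), an enzyme of tryptophan breakdown. Car5a was most like BC048644 (0.970) and the chloride channel gene Clcn2 (0.958), and Car8 was most like Magix (0.953) and Marcksl1-ps4 (0.949).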

How the data were processed

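One table deposited by the authors holds FPKM, to which 0.5 had been added, judging by the values, and this was subtracted. A second deposited table holds tags scaled to a common total (a signal), its library totals given per the file headers, and the authors' own comparisons as log2 fold changes and adjusted p-values. The submitters' processing notes name FastQC, STAR 2.4.0k, HOMER, edgeR 3.6.8 and the build mm10, without their roles. RNA came from flash-frozen liver, through a Zymo kit and stranded TruSeq libraries, per the labels' protocols; no source used here says whether counting used the strand.

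In the second table the transcript and coordinates in the rows of Car2, Car3 and Car1 belong to another transcript, as for 4210 of 24453 genes. For Car3 its values follow the symbol: scaled tags per FPKM and kilobase were 20.3 to 20.6, as for Car5a, with the length in the FPKM table. Car2 and Car1 were too low for that ratio to be taken, so their rows were not checked in this way. Coordinates are therefore from the FPKM table.

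Genes with at least 0.5 FPKM in at least 3 libraries (12614) were fitted as log2(FPKM + 0.5) by limma 3.58.1 (R 4.3.3) over all 12 libraries, with a mean per group, trend and robust steps, and Benjamini-Hochberg adjustment over all genes (threshold 0.05). Fold changes on this scale understate those of low genes. Scaled tags gave whole reads in 11 libraries, with 100% of values within 0.02 of a whole number. iAMPK HFD+dox replicate 2 was left out of that test. On these reads edgeR 4.0.16 (quasi-likelihood) called 3052 of 13773 genes for doxycycline in L-iAMPK and 1121 between genotypes on doxycycline. The precision of a level is the spread of 3 libraries. Scripts were tested on simulated data.

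The members, the 16 gene lists and the tests were chosen with earlier results of these data known. Members are named in full. From each other list up to 3 genes with the smallest p between genotypes on doxycycline are named. Krt7, Alb, Adipoq, Lep, Xist, Cyp2b9, Cyp2b13, Hao2 and the neighbours of Car3 are named besides. Krt7, Cyp2b9, Cyp2b13 and Hao2 were chosen after their values were seen. The genes most like a member were the 5 with the highest r for Car3 and 2 for the others, leaving out symbols of predicted genes, small RNAs and those ending in Rik. The labels do not say whether equal replicate numbers pair the libraries, and the main fit did not pair them. Deviations from the group means of libraries with the same number correlated between -0.169 and 0.446. That cannot settle the question, since libraries with different numbers were not compared. The alternatives were other scalings, pseudocounts of 0.1 and 1, no filter or one at 2 FPKM, the compared libraries alone, no trend or robust step, edgeR, a replicate block and leaving out each library.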

Additional observations from a re-analysis of the deposited data

Results flagged for a closer look

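The response of Car2 to doxycycline differed between the genotypes by a test of the difference itself, with an interaction of -1.92 on the log2 scale (limma adjusted p 0.00822). Without a filter on low genes the call ended, with a limma adjusted p of 0.0523. Car2 averaged 1.15 FPKM in L-iAMPK HFD+dox and 4.79 FPKM in L-iAMPK HFD, and 2.50 FPKM in iAMPK HFD+dox and 2.02 FPKM in iAMPK HFD. No group had enough libraries for a check of single samples that stand apart.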

How the results depend on the processing

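Car3 between genotypes on doxycycline and Car2 for doxycycline in L-iAMPK kept their direction and their call under every alternative run. Genes called without a filter numbered 1792 for doxycycline in L-iAMPK, 867 between genotypes on doxycycline, 211 for the interaction and 1 for doxycycline in iAMPK, where the adjustment covers 24453 genes. edgeR called 1121 between genotypes on doxycycline and 779 for the interaction. Members called were 2 for doxycycline in L-iAMPK with edgeR, median-ratio scaling, quantile normalization and the replicate block, 1 between genotypes on doxycycline with edgeR and without a filter, and 0 for the interaction without a filter (Car2, adjusted p 0.0523). Only the compared libraries gave 3 members between genotypes on doxycycline.

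Leaving out 1 library at a time gave 1871 to 3413 genes for doxycycline in L-iAMPK, 907 to 2445 between genotypes on doxycycline, 528 to 2801 for the interaction and 0 for doxycycline in iAMPK. Members called ranged from 1 to 2 in each of the first 3 comparisons. The fewest genes between genotypes on doxycycline and for the interaction came without iAMPK HFD+dox replicate 2, the most for the interaction without iAMPK HFD+dox replicate 1, and the fewest for doxycycline in L-iAMPK without L-iAMPK HFD replicate 1.

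Small log2 differences changed sign, and the cause was not tested. Car5a with doxycycline in L-iAMPK was 0.14 with edgeR, 0.17 after median-ratio scaling, 0.10 after quantile normalization, 0.18 without L-iAMPK HFD replicate 3 and 0.03 without L-iAMPK HFD+dox replicate 2. Between genotypes on doxycycline it was 0.0133 after median-ratio scaling and 0.0071 after quantile normalization. Car8 with doxycycline in iAMPK was -0.0258 with edgeR, -0.0137 after median-ratio scaling and -0.12 without iAMPK HFD replicate 2, and its interaction was -0.00499 without iAMPK HFD replicate 1. Over all libraries left out in turn, Car5a with doxycycline in L-iAMPK ranged from -0.10 to 0.18 and the Car8 interaction from -0.00499 to 0.31.

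Equal replicate numbers were not treated as pairs in the main fit. With the number as a replicate block, limma called 1626 genes between genotypes on doxycycline, 2919 for doxycycline in L-iAMPK, 0 for doxycycline in iAMPK and 1431 for the interaction, and Car14 with doxycycline in L-iAMPK had an adjusted p of 0.0329. The block changed no other call of a member. The precision of Car13, at 4 to 21 reads per library, allowed no comparison.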

Other observations

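Markers of other liver cells moved unevenly in the same libraries. Of 9 hepatic stellate cell genes, 2 fell and 0 rose between genotypes on doxycycline, with a median log2 difference of -0.47 beside -0.08 for all genes. With doxycycline in L-iAMPK 7 fell, with a median of -0.61 beside -0.13 for all genes. Of all genes, 10.3% and 21.1% were called lower in these comparisons. After median-ratio scaling 2 and 5 stellate cell genes fell. Lrat, the retinol esterifying enzyme of those cells, fell by 1.11 ± 0.22 (SE) between genotypes on doxycycline, with a limma adjusted p of 0.00982, and the collagen gene Col3a1 fell by 1.67 ± 0.48 (SE), with 0.0433. Lrat was called in all 17 fits and Col3a1 in 9 of them, with adjusted p-values up to 0.138. Of 9 macrophage and Kupffer cell genes, 0 were called between genotypes on doxycycline and 1 fell with doxycycline in L-iAMPK.

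Of 11 genes of hepatocytes around the portal vein, 0 were called between genotypes on doxycycline, with a median of -0.19 beside -0.08 for all genes. The smallest limma adjusted p was 0.0515 for Ass1, argininosuccinate synthase. Of 9 hepatocyte genes, 2 rose and 1 fell, and after median-ratio scaling 2 rose and 0 fell. Calls over all genes in that comparison were 4.61% higher and 10.3% lower. The fibrinogen gene Fgb rose by 1.06 ± 0.14 (SE), with a limma adjusted p of 0.00121, and Apoa2, an apolipoprotein, rose by 0.38 ± 0.09 (SE), with 0.0218. Fgb was called in all 17 fits. Apoa2 was called in 10 of them, with log2 differences of 0.09 to 0.48 and adjusted p-values up to 0.567, and Apoa1, which fell, in 7.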
